A study of Mus musculus with 2 samples.

Results

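The 9 genes described here encode enzymes that make heme (*Alas1*, *Alad*, *Uros*, *Urod*, *Cpox*, *Ppox* and *Fech*) or break it down (*Hmox1* and *Blvrb*). They were taken by symbol, and all 9 were found among the 53241 distinct gene symbols of the deposited liver files. mRNA sequencing compared the liver of 1 iFIRKO sample (tamoxifen-inducible adipocyte-specific insulin receptor knockout, genotype Adipoq-CreERT2; Insr flox/flox) with that of 1 control sample, to ask how hepatic gene expression differs when adipocytes lose the insulin receptor. Both were male, and both received tamoxifen at 100 mg/kg from 7 weeks of age on 5 days, with the liver taken 3 days after the final dose. The labels give the control genotype as WT and the study's methods as IR flox/flox. The Cre is driven by the adiponectin promoter, so the deletion is aimed at adipocytes and not at the liver. Whether each library stands for 1 mouse or several pooled mice is not given in either source. With 1 library per genotype there was no replicate check and no test for any value below, and every difference is between these libraries.

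Heme is an iron-containing ring that cytochromes, catalase and hemoglobin need to work. Its synthesis starts and ends in the mitochondrion, with the middle steps in the cytosol. In the liver, ALAS1 sets the pace of the whole route, and heme lowers ALAS1 in return, whereas red cell precursors use the separate isoenzyme ALAS2. Breakdown by heme oxygenase releases iron, carbon monoxide and biliverdin, and biliverdin reductases turn biliverdin into bilirubin, which hepatocytes conjugate and send into bile.

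Of these genes, *Alas1* alone stood apart. Its level in the iFIRKO library was 1.93 times that in the control library, while the other 8 lay between 0.850 and 1.27 times. At a threshold of 1.5-fold, 1 of the 9 genes was higher in iFIRKO and 0 were lower. Among all 13390 genes tested, 4.46% were that much higher and 7.29% that much lower. Genes entered the comparison from 41.8 normalized reads upwards in 1 or both libraries, which stands for a CPM of 1 (CPM scales a read count to the library total). Every one of the 9 also exceeded a CPM of 20, and among the 5911 genes at that level 2.35% were higher and 3.1% lower. The median log2 fold change over the 9 genes was 0.06, against 0.01 over all genes tested. Fold changes are iFIRKO over control, computed after 4.18 normalized reads were added to both values.

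The libraries held about 21138292 (control) and 20652476 (iFIRKO) read pairs on genes, estimated from the worth of 1 pair in the normalized values. Intervals given below are 95% exact intervals on these estimated pairs and cover counting error only. Of 10 hepatocyte markers, all were tested, with *Alb* at 4167154 and 3944155 normalized reads, so the tissue label held in both libraries. Their median log2 fold change was -0.06, with 0 higher and 1, *Apoa1*, lower. Among all genes tested, 4.46% were higher and 7.29% lower. Of 12 Kupffer cell and macrophage markers, 8 were lower by more than 1.5-fold and 0 higher in iFIRKO, and their summed level was 44636 normalized reads in control and 29155 in iFIRKO. Erythroid markers went the other way for the globins, with 12788 and 25020 normalized reads summed over 4 globin genes. Fewer cells of a type and less RNA per cell cannot be told apart in whole liver.

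*Alas1* (ENSMUSG00000032786.16, chromosome 9, 106233455 to 106248654 on the reverse strand of GRCm38) encodes 5-aminolevulinate synthase 1, the mitochondrial enzyme that joins glycine and succinyl-CoA. Its level was 9983 normalized reads in control against 19261 in iFIRKO. The log2 fold change was 0.95 (interval 0.899 to 0.998), from 5024 and 9567 read pairs. Of the genes tested, 1.76% had a larger fold change. The antisense gene 4930500F10Rik overlaps *Alas1* over 695 bases and was listed at 0 in both libraries.

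The RefSeq promoter table (GRCm38.p6, 250 bases before to 50 after each start) holds 2 start sites for *Alas1*. The windows of both contain a match to GCGCATGC, the core of the motif of NRF1, a nuclear factor for genes of mitochondrial function that is known to act on *Alas1*. It is shown because *Alas1* is the gene that differed, with the match in capitals:

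*Alas1*, chr9:106247907-106247936, reverse strand: ccgcacccaagGCGCATGCgcggcggtcac

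Counted from 0 at the start base, the match begins at position -195 from the downstream start and at position 29 from the upstream one. On the other strand, a match overlaps it. Of 32851 promoter windows of this length, 2.71% hold the motif on either strand. Counted by gene, 3.05% of the 27025 genes in the table have it in 1 or more windows, and of the 7 genes with a window only *Alas1* did. The factor's own gene, *Nrf1*, named here after its values were seen, had 371.6 and 382.8 normalized reads. A match is a description of the sequence and not evidence of binding.

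The cytosolic steps follow. *Alad* (chromosome 4, 62509169 to 62519918) encodes the dehydratase that joins 2 molecules of aminolevulinate into porphobilinogen, and it is the enzyme that lead inhibits. It was at 3696 normalized reads in control against 3856 in iFIRKO (log2 fold change 0.06), and the interval, -0.03 to 0.15, includes 0. Thus the step directly after ALAS1 did not differ beyond counting error at this depth.

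*Uros* (chromosome 7, 133686243 to 133710072) encodes uroporphyrinogen III synthase, which closes the ring. Its 1129 normalized reads in control against 958.8 in iFIRKO gave a log2 fold change of -0.23 (interval -0.41 to -0.06), the lowest of the 9. *Bccip* overlaps *Uros* over 740 bases on the opposite strand, at 2351 and 2442 normalized reads. The library kit keeps strand, but the counting is not stated to use it, so reads of this stretch are uncertain. *Urod* (chromosome 4, 116989965 to 116994413) encodes the decarboxylase that trims the ring's side chains and is deficient in porphyria cutanea tarda. It had 2501 and 2878 normalized reads, a log2 fold change of 0.20 (interval 0.09 to 0.31). *Uros* and *Urod*, consecutive in the route, thus had intervals on opposite sides of 0.

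The 3 cytosolic genes each have a promoter window with the E-box CACGTG, a site shape read by CLOCK, MYC and ChREBP family factors, as do 8.09% of all genes in the table. *Alad* holds it in the windows of both its start sites and *Uros* in that of its upstream start only. It is shown for the genes that share it, in capitals, each on the reverse strand:

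*Alad*, downstream start, chr4:62519920-62519949: ccgccccgccccCACGTGggcttgcgcttt
*Alad*, upstream start, chr4:62520151-62520180: gctccgaatgccCACGTGgaccccctcggg
*Urod*, chr4:116994445-116994474: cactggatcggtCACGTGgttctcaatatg
*Uros*, upstream start, chr7:133709516-133709545: CACGTGtgctttctcacctcgtccacgatt

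The windows of *Alas1*, *Cpox*, *Ppox* and *Blvrb* hold no E-box of these letters. The log2 fold changes of the genes with the motif, 0.06, 0.20 and -0.23, lay on both sides of 0.

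The last steps return to the mitochondrion. *Cpox* (chromosome 16, 58670292 to 58717636) encodes coproporphyrinogen oxidase. It was at 5076 normalized reads in control against 6446 in iFIRKO (log2 fold change 0.34, interval 0.27 to 0.42), the second largest of the 9 and short of the 1.5-fold threshold at 1.27-fold. *Ppox* (chromosome 1, 171275990 to 171281186), whose product oxidizes protoporphyrinogen, had 1054 and 1060 normalized reads, a log2 fold change of 0.01 (interval -0.17 to 0.19). *Ppox* overlaps *B4galt3* on the opposite strand over 907 bases, and that gene had 432.6 and 359.2 normalized reads. *Fech* (chromosome 18) encodes ferrochelatase, which puts iron into protoporphyrin. Its 4933 and 4574 normalized reads gave a log2 fold change of -0.11 (interval -0.19 to -0.03). Segments of the longest *Fech* transcript match other annotated transcripts at 95% identity or more, and those of them present in the files were listed at 0 in both libraries.

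The *Cpox* window holds GATA matches (AGATAA or TGATAA on either strand), a motif of the erythroid factor GATA1 and its relatives, as does that of the erythroid gene *Alas2*. *Cpox* is shown as an example, though other genes of the route also serve red cell precursors. Each line is on the forward strand, with the reverse complement of the motif in capitals:

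*Cpox*, chr16:58670110-58670139: aaagcgcctatcTTATCAgtccaagcacct
*Cpox*, chr16:58670200-58670229: cagggtgcagtcTTATCTgctctttccggg
*Alas2*, chrX:150547319-150547348: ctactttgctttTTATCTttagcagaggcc

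GATA matches occur in 1 or more windows of 5664 of the 27025 genes in the table, so a match is common. Among the 7 genes with a window, the downstream start of *Uros* also has a match, not shown here, and *Uros* had a log2 fold change of -0.23.

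**Figure D1:**
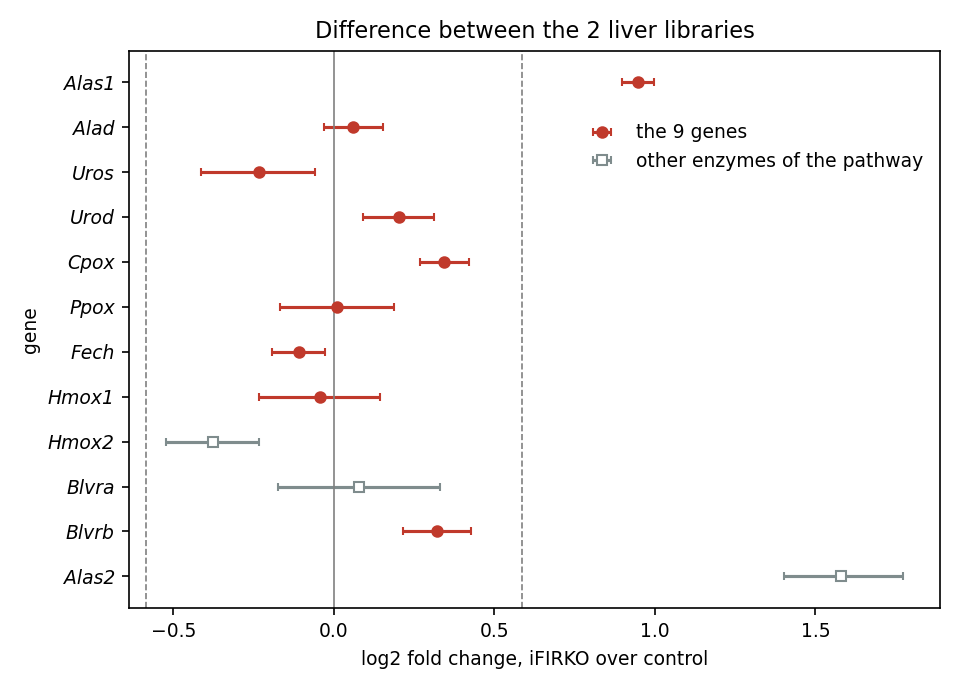
Log2 fold change (x axis, iFIRKO over control) of the 9 genes (filled circles) and of 3 other enzymes of the pathway (open squares), with exact 95% intervals for counting error in 1 library per genotype. Dashed lines mark a 1.5-fold difference, which only *Alas1* at 0.95 and *Alas2* at 1.58 pass.

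Taken over the whole synthesis route, the difference was carried by its opening enzyme. The 7 synthesis genes summed to 28372 normalized reads in control against 39034 in iFIRKO, a log2 ratio of 0.46 (interval 0.43 to 0.49). Without *Alas1* the other 6 summed to 18389 and 19772, a log2 ratio of 0.10 (interval 0.06 to 0.15). The mitochondrial genes *Cpox*, *Ppox* and *Fech* together had a log2 ratio of 0.13 (interval 0.07 to 0.18) and the cytosolic genes *Alad*, *Uros* and *Urod* one of 0.07 (interval 0.004 to 0.14). *Alas1* had 0.543 times the summed reads of the other 6 in control and 0.974 times in iFIRKO. Of the read pairs on the 7 genes, *Alas1* took 35.2% (exact binomial interval 34.4 to 36.0) in control and 49.3% (48.6 to 50.1) in iFIRKO. These sums and shares are not scaled for transcript length. Per kilobase of transcript, the share of *Alas1* was 26.2% in control, where *Alad* had 26.5%, and 38.8% in iFIRKO.

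Levels of different genes were compared per kilobase of the longest protein-coding transcript in GENCODE M21. In control, *Alad* (2964 normalized reads per kb) and *Alas1* (2937) led with overlapping intervals, and *Blvrb* (2497) followed. *Urod* (1680) and *Cpox* (1639) did not differ beyond counting error, and *Fech* (751), *Uros* (641), *Hmox1* (598) and *Ppox* (579) were lowest. In iFIRKO, *Alas1* led with 5667 normalized reads per kb, 1.82 times the level of *Blvrb* (3122), which was followed by *Alad* (3092). Below them came *Cpox* (2081), *Urod* (1933), *Fech* (696), *Ppox* (582), *Hmox1* (581) and *Uros* (544). Neighbours whose intervals overlapped were *Blvrb* and *Alad*, *Cpox* and *Urod*, *Ppox* and *Hmox1*, and *Hmox1* and *Uros*. The order depends on which transcript length is used. *Alas1* was at place 1 in iFIRKO with each of 3 length definitions, and in control at place 2, 2 and 1.

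**Figure D2:**
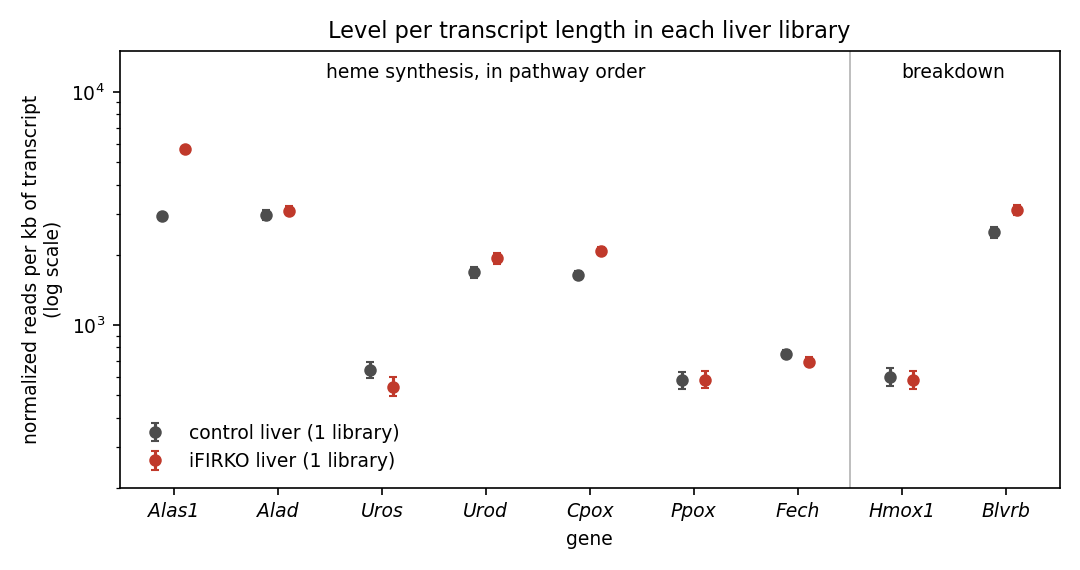
Level of each of the 9 genes in the control (grey) and iFIRKO (red) liver library, in normalized reads per kb of the longest protein-coding transcript on a log axis, with bars for the exact 95% counting interval. *Alas1* stands at 2937 in control and 5667 in iFIRKO, while for the other genes the pair of points lies closer together. The bars of the pair also do not overlap for *Cpox*, *Blvrb* and *Urod*.

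On the breakdown side, *Hmox1* (chromosome 8, 75093621 to 75100589) encodes the inducible heme oxygenase, which stress, heme and NRF2 switch on and which Kupffer cells carry as they clear aged red cells. It was at 939.0 normalized reads in control against 912.2 in iFIRKO (log2 fold change -0.04, interval -0.23 to 0.15). The Kupffer cell and macrophage markers, summed above, had a median log2 fold change of -0.62, and all 12 lay below 0. Their part in the *Hmox1* value was not tested. *Hmox2*, the constitutive heme oxygenase and outside the 9, had 1798 and 1384 normalized reads, a log2 fold change of -0.38 (interval -0.52 to -0.23). *Hmox2* shares 16395 bases of gene span, introns included, with *Cdip1* on the opposite strand, whose values were 4007 and 4528. A stretch of 767 bases of the longest *Hmox2* transcript matches *Cdip1*, so the *Hmox2* count is uncertain.

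*Blvrb* (chromosome 7, 27447978 to 27466144) encodes biliverdin reductase B, a flavin and biliverdin reductase that is also abundant in red cells. It was at 2567 normalized reads in control against 3209 in iFIRKO (log2 fold change 0.32, interval 0.22 to 0.43), or 1.25-fold. *Blvra*, the reductase that makes the main adult bilirubin isomer and outside the 9, had 513.0 and 542.0 normalized reads, a log2 fold change of 0.08 (interval -0.17 to 0.33). *Hmox1* and *Blvrb* together had a log2 ratio of 0.23 (interval 0.14 to 0.33). The ratio of *Alas1* to *Hmox1* reads, not scaled for transcript length, was 10.6 in control and 21.1 in iFIRKO. The NRF2 element, searched as TGACNNNGC or TGAGNNNGC on both strands, occurs in 1 or more windows of 30.8% of all genes in the table. Among the 7 genes with a window, those of *Uros*, *Cpox* and *Blvrb* hold it. *Hmox1* and *Fech* have no window in the table and were not searched for any motif.

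Most of the erythroid markers tested were higher in iFIRKO, as *Alas1* was. *Alas2*, the red cell isoenzyme, was at 639.7 normalized reads in control against 1921 in iFIRKO (log2 fold change 1.58, interval 1.40 to 1.77). *Apex2* overlaps *Alas2* over 23264 bases of gene span, introns included, on the opposite strand and had 425.4 and 437.8 normalized reads. A stretch of 312 bases of the longest *Alas2* transcript matches *Apex2*, so the *Alas2* count is uncertain. Of 14 erythroid markers, 13 were in the files and 8 were tested, of which 6 were more than 1.5-fold higher in iFIRKO and 2 were lower, with a median log2 fold change of 0.97 and a summed level of 13621 and 27093 normalized reads. The higher ones were *Alas2*, *Slc4a1* (1.10, interval 0.26 to 2.23, from 14 and 32 read pairs) and the 4 globin genes, with *Hba-a1* at 0.96, *Hba-a2* at 0.99 and *Hbb-bs* at 0.97. The lower ones were *Klf1* (-1.01, interval -1.81 to -0.35) and *Epor*, the latter named after its values were seen. *Epor* was at -0.63 from 30 and 19 read pairs, with an interval of -1.55 to 0.24 that includes 0, and with a pseudocount of a CPM of 1 it was at -0.37, inside the 1.5-fold band. Near-identical globin copies can share reads. The iFIRKO library had more globin and *Alas2* reads and fewer reads of the precursor factor *Klf1*, which had 53 and 25 read pairs.

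*Alas1* and *Alas2* are separate genes, and no stretch of at least 100 bases of the longest *Alas1* transcript matched an *Alas2* transcript at 95% identity. Not scaled for transcript length, the difference between libraries was 9278 normalized reads for *Alas1* and 1282 for *Alas2*. *Alas2* had the larger log2 fold change, 1.58 against 0.95 for *Alas1*. *Alad*, *Uros*, *Urod*, *Cpox*, *Ppox*, *Fech* and *Blvrb* are also used by red cell precursors, and of these only *Cpox*, *Blvrb* and *Urod* had an interval above 0. The part of red cell RNA in any of these values was not tested.

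**Figure D3:**
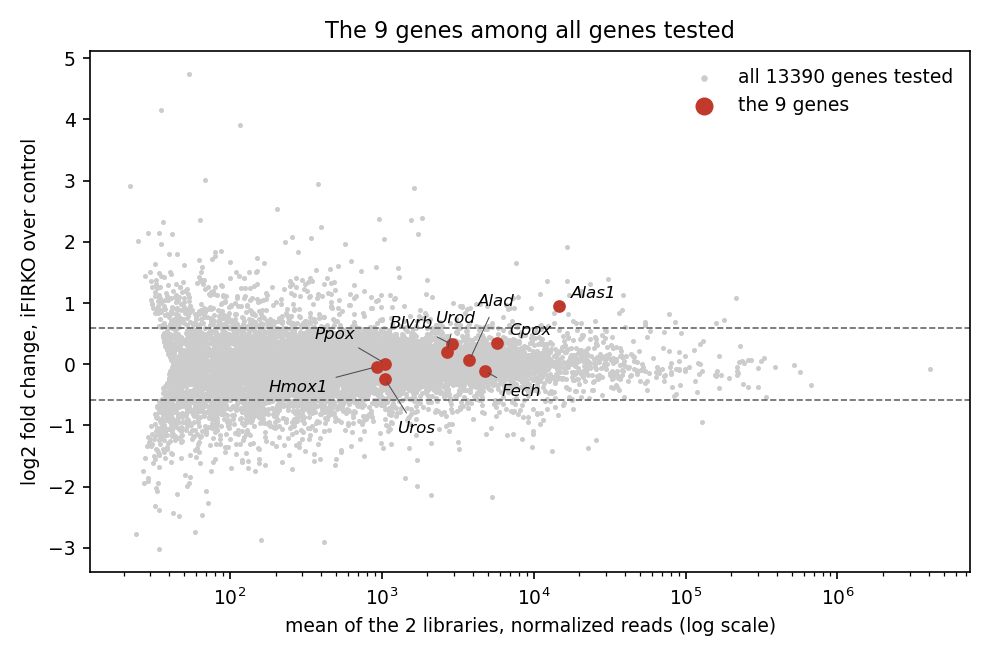
Log2 fold change (y axis, iFIRKO over control) against the mean of both libraries in normalized reads (x axis, log scale) for all 13390 genes tested (grey), with the 9 genes in red and dashed lines at a 1.5-fold difference. *Alas1* lies above the upper line at 0.95, and the other 8 lie between -0.23 and 0.34, inside the band where most genes fall.

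Genes that serve heme synthesis inside the mitochondrion were described as a list of 12, of which 0 were more than 1.5-fold higher and 0 lower, with a median log2 fold change of 0.07. With 4.46% of all genes tested higher and 7.29% lower, counts of 0 among 12 genes are near the background. *Clpx*, the unfoldase of the protease that degrades ALAS1 when heme is plentiful, had 11783 and 12303 normalized reads, a log2 fold change of 0.06 (interval 0.01 to 0.11). *Pgrmc1*, a heme-binding partner of ferrochelatase, had 43850 and 47567, a log2 fold change of 0.12. *Slc25a39*, a mitochondrial carrier for glutathione, had 15019 and 17280 (0.20), and *Abcb10*, a mitochondrial transporter, had 1158 and 1405 (0.28). *Iscu*, the scaffold of iron-sulfur cluster assembly, had the largest log2 fold change of the list, 0.41 (interval 0.30 to 0.52), and *Slc25a37*, which encodes the mitochondrial iron importer mitoferrin-1, the lowest, -0.23 (interval -0.36 to -0.10).

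Regulators known for *Alas1* transcription numbered 13 tested genes, of which 0 were higher and 0 lower at 1.5-fold, with a median log2 fold change of -0.04. *Ppargc1a*, the fasting coactivator that induces *Alas1*, had 557.3 and 411.4 normalized reads, a log2 fold change of -0.43 (interval -0.71 to -0.17). The clock gene *Nr1d1* (REV-ERBα) was at -0.28, with an interval of -0.56 to 0.003 that includes 0. The clock gene *Arntl* (BMAL1) was at -0.29 (interval -0.44 to -0.14). *Nr1h4*, the bile acid receptor FXR, had 6200 and 7096 normalized reads (0.19), while *Hnf4a* and *Rxra* were at -0.04 and -0.05. Among all genes tested 4.46% were higher and 7.29% lower, so a count of 0 among 13 genes is near the background. The part of any regulator in the *Alas1* value was not tested.

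For *Hmox1*, 0 of 8 regulators were higher and 1 was lower. In a list this short, both counts are near the background of 4.46% higher and 7.29% lower. *Nfe2l2*, which encodes NRF2, had 3126 and 4199 normalized reads, a log2 fold change of 0.43 (interval 0.33 to 0.52). *Bach1*, the heme-sensing repressor of *Hmox1*, had 1514 and 1184, a log2 fold change of -0.35 (interval -0.51 to -0.20). *Maff*, a small MAF partner, had 136.5 and 48.0 normalized reads, a log2 fold change of -1.43 from only 69 and 24 read pairs, and *Mafg* and *Keap1* were at -0.29 and 0.08. The activator was thus higher and the repressor lower, each inside the 1.5-fold band, with *Hmox1* itself at -0.04. The part of either in the *Hmox1* value was not tested.

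Of 8 NRF2 targets outside the 9, 7 were tested, with 0 higher and 1 lower and a median log2 fold change of 0.04. Such counts among 7 genes are near the background of 4.46% higher and 7.29% lower. *Gclc* and *Gclm*, the subunits of the rate-limiting enzyme of glutathione synthesis, were at 0.04 and 0.02, *Srxn1* at 0.28 and *Nqo1* at 0.39. *Osgin1* was the lower gene, at 10136 and 4597 normalized reads and -1.14. The other 6 lay inside the 1.5-fold band, as *Hmox1* did.

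Heme itself goes into liver hemoproteins, and this list was mixed. It also holds *Por*, the reductase that serves P450s, which carries no heme itself. *Por*, named after its values were seen, was at -0.44. Of 18 genes, 1 (5.56%) was more than 1.5-fold higher and 5 (27.8%) were lower, against 4.46% and 7.29% of all genes tested and 2.35% and 3.1% of those at a CPM of 20 or more. The median log2 fold change was -0.09, and without *Por* the middle gene of the list was *Cyp3a11*, at 0.04. *Cyp4a14*, a PPARα-induced fatty acid hydroxylase, was the higher gene, at 24429 and 53514 normalized reads and 1.13. The lower genes were *Cyp51* (-0.81), which demethylates lanosterol in cholesterol synthesis, *Cyp2b10* (-0.78), the classic target of the receptor CAR, and, named after their values were seen, *Cyp27a1* (-0.74), *Cyp1a2* (-0.67) and *Cyp7a1* (-0.62). The most abundant members by the mean of both libraries, *Cyp3a11*, *Cat* and *Cyp2e1*, were at 0.04, 0.14 and -0.52. *Cyp2c29*, named after its values were seen, had 58816 and 84913 normalized reads, above *Cyp2e1* (68611) in iFIRKO, and was at 0.53, short of the threshold. Members of the P450 families can share reads between close copies, so single values are uncertain. Summed over the 18 genes, the level was 727342 normalized reads in control and 748909 in iFIRKO.

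The genes that handle heme outside its synthesis were also described. Of 11 genes for heme and hemoglobin binding and transport, 1 was higher and 0 lower, near the background of 4.46% higher and 7.29% lower. *Hpx* (hemopexin) and *Hp* (haptoglobin), the plasma scavengers of heme and hemoglobin, had 338016 and 261480 and 265758 and 212041 normalized reads, log2 fold changes of -0.37 and -0.33. *Abcg2*, an exporter that carries porphyrins, was the higher gene, at 2544 and 3978 normalized reads, a log2 fold change of 0.64 (interval 0.54 to 0.75). *Ambp*, the precursor of the heme-binding α1-microglobulin, was at -0.09.

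Of 7 genes for bilirubin disposal, 0 were higher and 1 was lower, with a median log2 fold change of -0.18. Against 4.46% higher and 7.29% lower among all genes tested, these counts are near the background. *Ugt1a1*, which conjugates bilirubin, had 27772 and 18850 normalized reads, a log2 fold change of -0.56 (interval -0.60 to -0.52), short of the threshold. *Slco1a4*, an organic anion uptake carrier, was the lower gene, at 3148 and 1783 normalized reads and -0.82 (interval -0.94 to -0.70). *Slco1b2*, a hepatic bilirubin uptake carrier, and *Gsta3*, a glutathione transferase, were at -0.18 and 0.03, and *Slco1a1* at 0.34. The UGT1A transcripts share exons, so the *Ugt1a1* value may hold reads of other UGT1A forms.

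**Figure D4:**
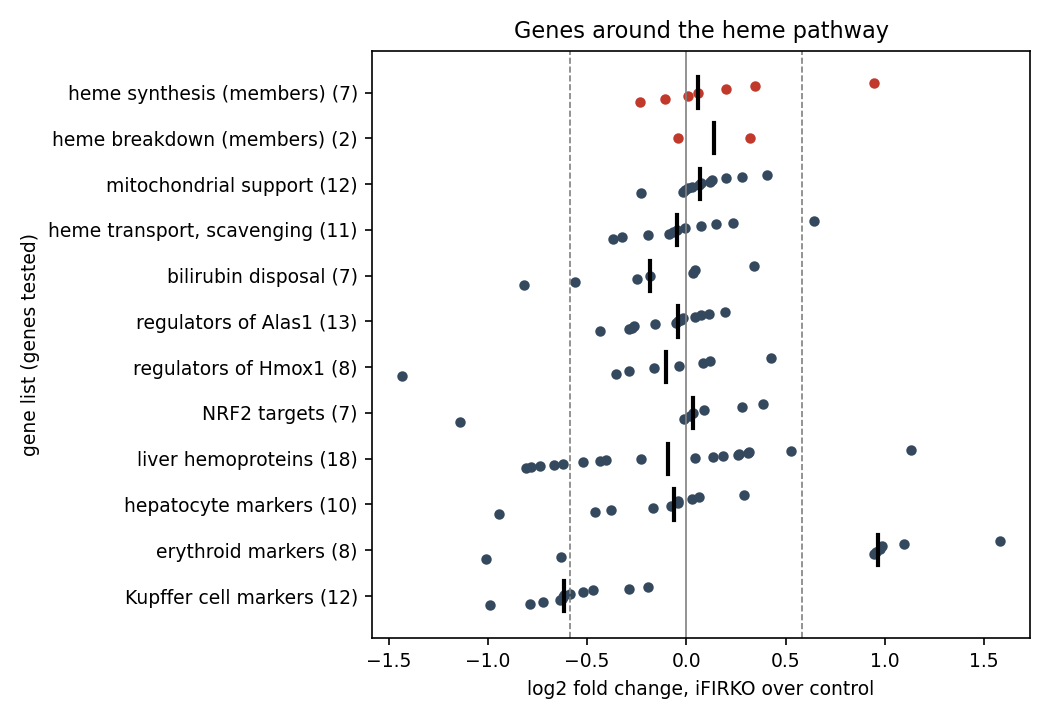
Log2 fold change (x axis, iFIRKO over control) of each tested gene in 12 gene lists around the heme pathway, with the list's median as a black bar, dashed lines at a 1.5-fold difference and vertical offsets only to separate points. The 9 genes are in red, with *Alas1* alone past the line, while the erythroid and Kupffer cell markers have medians of 0.97 and -0.62.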

How the data were processed

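Per the file headers, the authors deposited a normalized read count for each library, with values listed by gene symbol. The values were read as log2. A listed 0 was taken as no reads, though it may stand for a scaled count of 1 or less. The submitters' processing notes name mm10, which is GRCm38. The aligner, counter and scaling are not given in the sources used here. Deposited values were raised back from log2, the first row of a repeated symbol was kept, and 41.8 normalized reads were taken as a CPM of 1. The commonest low value was taken as 1 read pair. Only 40.2% (control) and 40.5% (iFIRKO) of low values were then whole pairs, within 0.01 pair, so depths and intervals are estimates and no count model was used. Libraries without molecular identifiers do not count independent molecules.

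The pseudocount was a CPM of 0.1, the minimum a CPM of 1 in 1 or both libraries, and the fold of 1.5 is that of the study's methods. Single genes have exact Clopper-Pearson intervals at 95%, from the share of iFIRKO among both libraries' pairs, and levels per kb have exact Poisson intervals. Genes at 3 pairs or fewer in either library were given no fold change. The functions were tested on simulated data. The gene lists and members were chosen with earlier results of these data known. Some genes of the pathway and of 2 lists are not reported here and were left out of the lists. Named outside the 9 are 3 other pathway enzymes and up to 3 genes of each list by level and 3 by fold. Positions, lengths and overlaps came from GENCODE M21, near copies from BLAST 2.17.0 (95% identity over 100 bases), and promoters from RefSeq, where 7 of the 9 genes matched. Overlaps are between whole gene spans, introns included. The planned protein comparison was not made. Work was done in Python 3.11.15 with scipy 1.17.1, pandas 2.3.3, numpy 2.4.6 and matplotlib 3.10.9. The alternatives were other pseudocounts, minimums, scalings, transcript lengths, a fold of 2 and summed duplicate symbols.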

Additional observations from a re-analysis of the deposited data

How the results depend on the processing

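No paired analysis was possible because each genotype has 1 library, and for the same reason no library could be left out. Of 81 values of the 9 genes under 9 alternatives to the fit, all 81 stayed within the gene's counting interval. Only the pseudocounts and scalings could move these values, since all 9 genes pass every minimum and none is a repeated symbol. *Alas1* ranged from 0.94 to 0.95. *Ppox*, at 0.01, ranged from -0.00 to 0.01. With a fold above 2 in place of 1.5, 0 of the 9 genes were higher. The order of levels per kb depended on the length used. With the union of all annotated exons 4 of the 9 genes kept their place in control and 1 in iFIRKO, and with the median length of protein-coding transcripts 3 kept it in control and 4 in iFIRKO. These alternatives change the lengths alone. Over all genes, 597 were higher and 976 lower, against 371 and 576 with a pseudocount of a CPM of 1, 1956 and 2617 without an expression minimum, and 288 and 440 with a minimum CPM of 5. Without a minimum, the erythroid markers had a median of 0.68 in place of 0.97, since genes of few reads then enter the list. With a minimum CPM of 20, chosen after seeing the data, 139 and 183 genes passed. The count among the 9 could not change, as all 9 exceed that minimum. The scalings shifted log2 fold changes by -0.01 each. Counting error is largest for *Hmox1* and *Uros*, at 453 and 476 read pairs in iFIRKO.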
